A study of Mus musculus with 8 samples.

Results

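Integrin and laminin genes were read in the ventral prostate of mice that carry human SKP2 in the probasin gene. The genes were taken by name, as every row whose symbol begins with Itga or Itgb followed by a chain number or chain letter, or is Lama, Lamb or Lamc with a number. The rule took 42 of the 36333 genes in the table. Of these, 38 encode chains: 18 integrin alpha, 9 integrin beta, 5 laminin alpha, 3 laminin beta and 3 laminin gamma chains. The other 4 (Itgbl1, Itgb1bp1, Itgb1bp2 and Itgb3bp) share the name but are not chains of a receptor. Counts below include them unless chains are named. The 8 libraries came from 4 hSKP2-KI and 4 wild-type (WT) mice of the FVB/N strain, all males aged 12 months, with 1 library per mouse and no treatment in the labels. In hSKP2-KI mice a P2A peptide and the coding sequence of human SKP2, the substrate-binding subunit of a ubiquitin ligase, were placed by CRISPR/Cas9 into exon 1 of the endogenous mouse probasin gene (Pbsn), whose promoter is active in prostate epithelium. Pbsn lies on the X chromosome, so the males studied have a single allele; which founder line was sequenced is not given in the sources used here, so a trait of 1 line cannot be told apart from the knock-in. The lobe was homogenised whole, so fewer cells of a type and less RNA per cell cannot be told apart in any value below.

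Integrins are cell surface receptors built from 1 alpha and 1 beta chain. They tie the cytoskeleton to the extracellular matrix or, on leukocytes, to other cells, and they take on an active form when talin and kindlin bind the tail of the beta chain. Laminins are trimers of an alpha, a beta and a gamma chain that polymerise into the basement membrane, the sheet beneath the glandular epithelium and around smooth muscle, vessels and nerves. In the prostate, basal epithelial cells sit on this sheet through α6β4 integrin, and loss of α6β4 is known from prostate carcinoma.

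The promoter windows of Itga5 and Itgb1, the 2 chains of the fibronectin receptor α5β1, are shown because both chains rose in TPM (transcripts of a gene per fixed total, corrected for length) and neither window holds an annotated exon base. Each covers the 250 bases before the transcription start and comes from RefSeq on GRCm38.p6. Capitals mark matches to the motifs searched, on either strand. Itga5 lies at chr15:103344286-103366791 on the minus strand and its window is chr15:103366792-103367041. Itgb1 lies at chr8:128685654-128733579 on the plus strand and its window is chr8:128685404-128685653.
Itga5: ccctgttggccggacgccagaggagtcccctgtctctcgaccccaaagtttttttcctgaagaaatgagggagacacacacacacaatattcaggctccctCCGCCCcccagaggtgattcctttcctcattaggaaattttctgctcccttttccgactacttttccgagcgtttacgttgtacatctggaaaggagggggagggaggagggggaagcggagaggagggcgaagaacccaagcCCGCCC
Itgb1: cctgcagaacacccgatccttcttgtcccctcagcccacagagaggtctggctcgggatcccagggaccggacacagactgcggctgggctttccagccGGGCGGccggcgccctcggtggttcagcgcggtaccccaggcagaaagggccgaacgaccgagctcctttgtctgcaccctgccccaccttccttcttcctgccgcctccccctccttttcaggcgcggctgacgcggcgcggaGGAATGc
The window of Itga5 held 2 GC boxes (GGGCGG, or CCGCCC on the other strand), beginning 149 and 6 bases before the start, and that of Itgb1 held 1, beginning 151 bases before it. A TEAD element (GGAATG) began 7 bases before the start of Itgb1. Across 32851 RefSeq windows of this length, 32.7% held a GC box and 12.6% a TEAD element. Of the 42 genes, 27 had an entry, with 30 windows among them, of which 10 (33.3%) held a GC box and 3 (10%; Itga10, Itgb1 and Lamb3) a TEAD element. No window of these genes held a TATA box (TATAAA), against 12.4% of all windows; 1, that of Itgax, held an AP-1 element (TGANTCA), against 6.75%, and 2, those of Itgb6 and Lama2, held a CArG box, against 1.47%. A match is a run of letters, and the shares of GC boxes and TEAD elements were close to those of all windows.

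The genotype labels fitted the targeted locus. Skp2 stood at 37.3 to 60.6 TPM in hSKP2-KI and 1.05 to 2.27 TPM in WT, and Pbsn at 93.0 to 174 TPM against 3980 to 9232. The Skp2 row is that of the mouse gene, and how reads of human SKP2 were mapped is not given in the sources used here. Because TPM are forced to the same total in every library, abundant secretory transcripts set the scale of all others: Sbp, Spink1 and Sbpl together took 40.4 to 45.8% of the TPM in WT but 32.1 to 34.3% in hSKP2-KI. The median log2 fold change of the 13080 genes tested was 0.23, and 89.1% of them were above 0. Results are therefore given on TPM as deposited and again after each library was divided by its median ratio to the geometric mean of all libraries, which placed the median gene at -0.01 and 48.5% of genes above 0. Median-ratio scaling takes the typical gene as unchanged, and which scale lies nearer to the RNA per tissue was not tested. The epithelial markers were well detected, with a summed TPM of 1744 to 1951 in hSKP2-KI and 1470 to 1675 in WT, as were those of smooth muscle, at 3064 to 4692 in hSKP2-KI and 2066 to 2609 in WT.

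The integrin and laminin genes tested all had log2 fold changes above 0 on the deposited scale, where 89.1% of all tested genes did. A gene was tested with limma when its TPM reached 1 in at least 4 libraries, and called at a Benjamini-Hochberg adjusted p under 0.05 over all genes tested. Of the 42 genes, 32 passed this filter, 29 of the 38 chains among them, and the other 10 are given by their levels further on. On TPM as deposited 15 of the 32 rose (46.9%) and 0 fell, beside 32.7% of all tested genes that rose and 1.23% that fell. Of the 29 chains 14 rose (48.3%). These were 11 of 18 integrin chains (61.1%) and 3 of 11 laminin chains (27.3%), the latter near the 32.7% of all tested genes. The median log2 fold change was 0.47 for the integrin chains and 0.33 for the laminin chains, and all 11 laminin values were above 0. The families were not compared by a test. With 1 mouse left out the count among the 32 ran from 9, without WT replicate 1, to 18, without hSKP2-KI replicate 1. The median log2 fold change of the 32 was 0.38, beside 0.23 for all tested genes, and all 32 values were above 0. The median of the 29 chains alone was 0.41. In 13 genes, 11 of them chains, every hSKP2-KI mouse was above every WT mouse, as in 34.0% of all tested genes. In 0 it was the reverse, as in 1.03%. After median-ratio scaling the median was 0.19, 26 of 32 values were above 0, 1 gene rose (3.12%) and 0 fell, beside 6.92% and 4.25% of all tested genes. On that scale 4 genes (Itgb1, Itgb2, Itga9 and Itgbl1) were without overlap and higher and 0 lower, beside 10.3% and 8.91% of all tested genes. The gene called was Itgbl1, which is not a receptor chain. Quantile normalization called Itgbl1 alone (5.42% of all genes rose and 4.65% fell), as did leaving the 20 most abundant genes out of the total (6.79% and 3.32%). By limma 0 chains were called on each of these 3 scales; at an unadjusted p under 0.05 there were 10, 7 and 9 chains of 29, beside 27.8%, 27.5% and 26.0% of all genes. The smallest adjusted p of a chain after median-ratio scaling was 0.0553, for Lamb1.

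**Figure D1:**
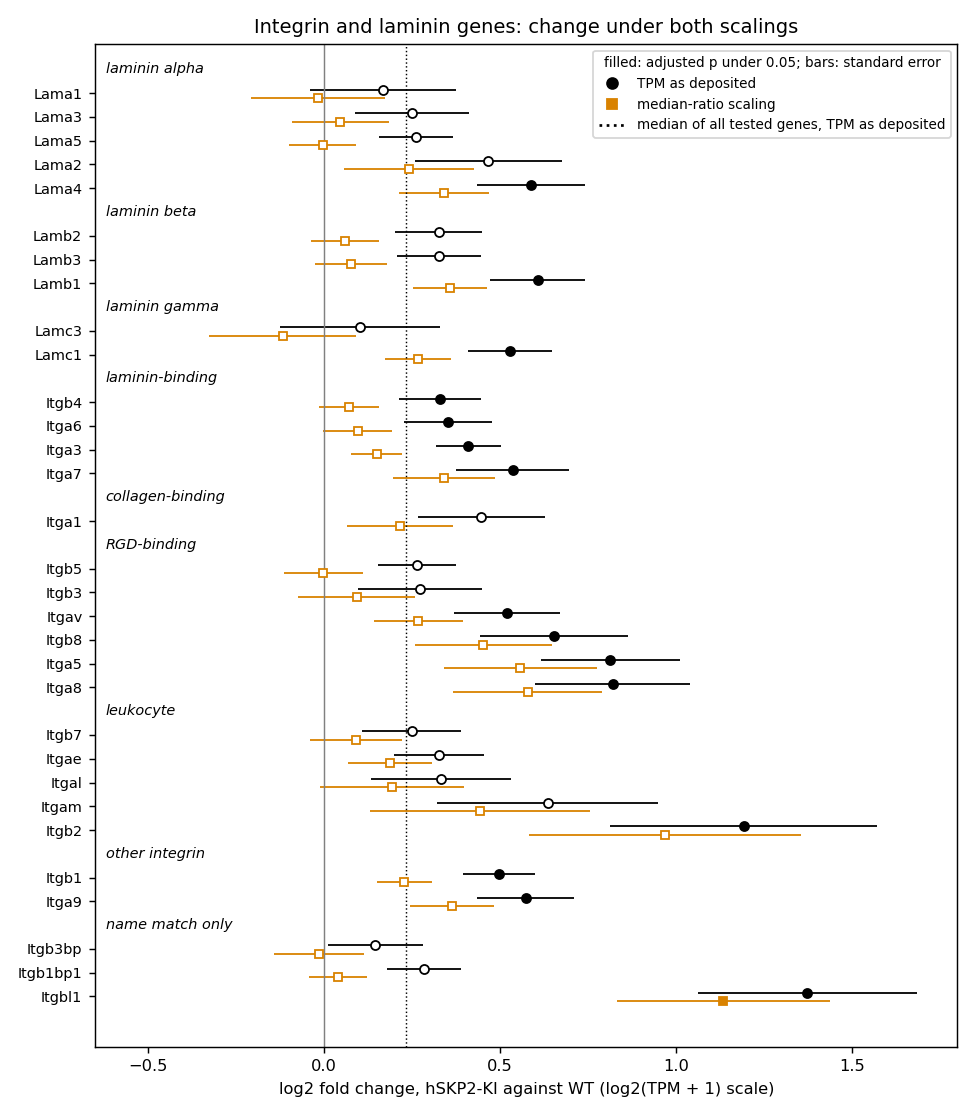
Log2 fold change of 31 tested integrin and laminin genes (hSKP2-KI against WT, log2(TPM + 1) scale, bars ± standard error, 4 mice per genotype), grouped by role, on TPM as deposited (circles) and after median-ratio scaling (squares). All 31 circles lie above 0 and 15 are filled (adjusted p under 0.05), whereas Itgbl1 has the only filled square.

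In level, a few chains made up most of the signal. TPM are per transcript length, so genes may be ordered by them. Among the highest in WT were Itgb1 (103 TPM), Lamb2 (76.2), Itgb5 (62.2), Lama5 (44.7) and Lamc1 (28.7), followed by Itgb4, Itga3 and Itga6 at 23.1, 22.2 and 17.5 TPM. The WT ranges of Lamb2 (60.9 to 89.9) and Itgb5 (57.5 to 66.0) overlapped, yet within each of the 8 mice Lamb2 was above Itgb5, and Itgb5 was above Lama5 (41.3 to 46.1 in WT). Lama5 and Lamb2, the leading alpha and beta chains, are known from epithelial and vascular basement membranes.

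Among the laminin alpha chains, Lama4 rose on the deposited scale and Lama5, the most abundant, did not pass the test. Lama4 (α4), a chain of vessel, muscle and stromal basement membranes, lies at chr10:38965515-39110188. It stood at 11.0, 15.5, 15.2 and 16.1 TPM in hSKP2-KI and at 6.73, 9.81, 10.2 and 10.4 TPM in WT. Every hSKP2-KI mouse was above every WT mouse, although WT replicate 1 lay well below its group. The log2 fold change was 0.59 (standard error, SE, 0.15, limma, adjusted p = 0.0160) and 0.34 after median-ratio scaling (adjusted p = 0.112). Lama5 (α5, chr2:180176373-180225904), the alpha chain typical of epithelial basement membranes, stood at 44.3, 51.5, 63.1 and 58.1 TPM against 41.3, 46.1, 45.9 and 45.6 TPM. Its groups overlapped, and its log2 fold change was 0.26 (SE 0.11, adjusted p = 0.0742) and -0.0033 after median-ratio scaling. The ratio of Lama4 to Lama5 within a library does not depend on scaling. It was 0.249, 0.301, 0.241 and 0.277 in hSKP2-KI and 0.163, 0.213, 0.223 and 0.229 in WT. All 4 hSKP2-KI ratios were higher, by 0.38 on the log2 scale, with an exact permutation p of 0.0286 (two-sided), the smallest that 4 against 4 allows, and an adjusted p of 0.0571 over the 4 ratios tested. Lama2 (α2, the chain of muscle and nerve), Lama3 (α3, of the epithelial anchoring laminin) and Lama1 (α1, mostly embryonic) were low, at 4.70 to 9.51, 2.49 to 4.21 and 1.504 to 3.84 TPM in hSKP2-KI and 3.40 to 6.94, 2.23 to 3.66 and 1.66 to 3.05 TPM in WT, and none of them passed the test (adjusted p = 0.0972, 0.223 and 0.515).

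Lamb1 and Lamc1, the β1 and γ1 chains that pair in most laminins outside the anchoring type, showed the same pattern as Lama4. Lamb1 (chr12:31265146-31329644) stood at 13.4, 18.4, 16.98 and 16.7 TPM in hSKP2-KI and 8.12, 12.6, 10.9 and 10.3 TPM in WT. Lamc1 (chr1:153218922-153332786) stood at 34.3, 47.8, 42.8 and 42.3 TPM against 24.3, 33.5, 29.0 and 27.8 TPM. For both genes the genotypes did not overlap on the deposited scale, and after median-ratio scaling they did. The log2 fold changes were 0.61 for Lamb1 (SE 0.13, adjusted p = 0.00871) and 0.53 for Lamc1 (SE 0.12, adjusted p = 0.00917), and 0.36 and 0.27 after median-ratio scaling (adjusted p = 0.0553 and 0.0959). Lamb2 (β2, 80.1 to 107 against 60.9 to 89.9 TPM), typical of vessels and muscle, and Lamb3 (β3, 13.5 to 18.7 against 11.1 to 14.4 TPM), the anchoring chain, overlapped between genotypes and did not pass the test (adjusted p = 0.0603 and 0.0543). Lamc3 (γ3), at 2.62 to 6.03 against 3.03 to 5.83 TPM, had log2 fold changes of 0.10 and -0.12 on the deposited and the median-ratio scale, neither past the test.

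As shares of the alpha and beta chain families, these differences were small against the order of the chains. Lama5 held 70.3 ± 3.44% (SD, n = 4) of the alpha chain TPM in WT and 66.3 ± 3.29% in hSKP2-KI, and Lama4 held 14.5 ± 1.77% and 17.6 ± 0.957%. Lamb1 held 10.6 ± 0.338% of the beta chains in WT and 12.9 ± 0.445% in hSKP2-KI, and Lamb2 stood at 77.1 ± 0.798% and 74.9 ± 0.773%, neither share overlapping between genotypes. The summed chains came to 63.9 ± 6.03 (alpha) and 98.8 ± 15.1 TPM (beta) in WT and to 81.9 ± 12.5 and 127 ± 15.4 TPM in hSKP2-KI, and both sums overlapped between genotypes. No test was run on the shares and sums.

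**Figure D2:**
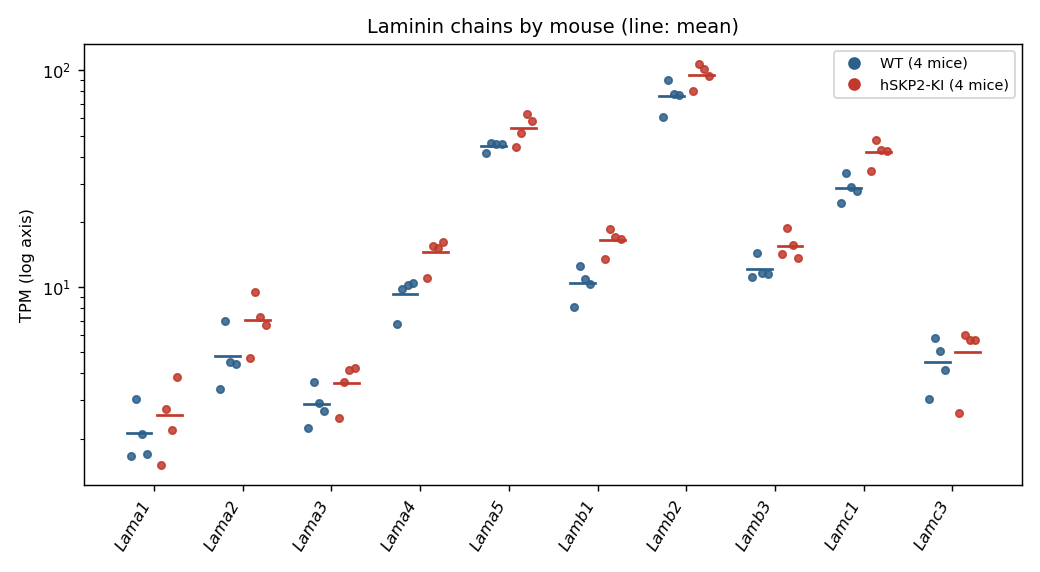
TPM of 10 laminin chains by mouse (log axis; points are mice, lines are group means of 4). The hSKP2-KI and WT points are separate for Lama4, Lamb1 and Lamc1 and overlap for the other 7.

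**Figure D3:**
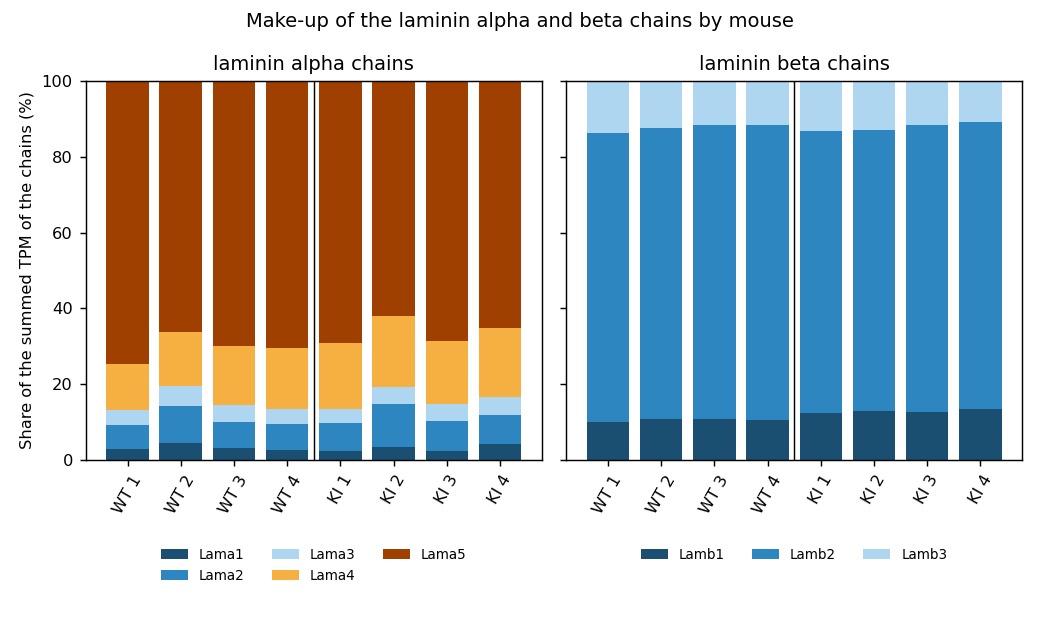
Share of each chain in the summed TPM of the laminin alpha and beta chains (%), 1 bar per mouse, WT left and hSKP2-KI right of the line. Lama5 and Lamb2 hold the largest share in every mouse, and the Lamb1 share is 12.5 to 13.5% in hSKP2-KI against 10.1 to 10.9% in WT.

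All 4 laminin-binding integrin chains rose on the deposited scale, where 32.7% of all tested genes did, and 0 were called after median-ratio scaling. Itga3 (α3, a laminin receptor chain of epithelium, chr11:95044475-95076844) stood at 29.6, 27.6, 30.3 and 31.3 TPM in hSKP2-KI and 19.3, 24.8, 23.3 and 21.4 TPM in WT, without overlap, for a log2 fold change of 0.41 (SE 0.092, adjusted p = 0.00928). After median-ratio scaling its groups overlapped and the log2 fold change was 0.15 (adjusted p = 0.208). Itga6 and Itgb4, the chains of the hemidesmosome receptor α6β4, were both called. Itga6 stood at 19.2, 20.6, 24.5 and 26.1 TPM against 14.7, 20.8, 17.2 and 17.3 TPM, and Itgb4 at 25.4, 29.4, 28.7 and 33.6 TPM against 19.6, 27.7, 22.7 and 22.5 TPM. In both genes WT replicate 2 reached into the hSKP2-KI range. Their log2 fold changes, 0.35 (SE 0.12, adjusted p = 0.0486) and 0.33 (SE 0.12, adjusted p = 0.0474), sat close to the threshold and came to 0.10 and 0.07 after median-ratio scaling. Leaving out any of WT replicates 1, 3 or 4 or hSKP2-KI replicates 2, 3 or 4 ended both calls, with the adjusted p reaching 0.126 and 0.124. The Itga6 to Itgb4 ratio was 0.701 to 0.853 in hSKP2-KI and 0.749 to 0.772 in WT, a difference of 0.03 on the log2 scale (exact permutation p = 0.629, adjusted p = 0.629). Itga7 (α7), the laminin receptor chain of muscle, stood at 2.51 to 4.48 TPM in hSKP2-KI and 1.58 to 2.58 TPM in WT with a change of 0.54 on the log2 scale (adjusted p = 0.0275), a call lost without WT replicate 1 or 3 or without hSKP2-KI replicate 2 or 4 (adjusted p up to 0.0764).

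The chains that bind the RGD sequence of fibronectin, vitronectin and latent TGF-β held the largest rises among matrix integrins, with 4 of the 6 tested called, beside 32.7% of all tested genes, and 0 of the 6 after median-ratio scaling. Itga5 (α5) stood at 23.8, 35.8, 25.7 and 15.7 TPM in hSKP2-KI and 14.3, 11.2, 14.7 and 13.5 TPM in WT. The genotypes did not overlap, yet hSKP2-KI replicate 4 was barely above the highest WT mouse and replicate 2 was far above it. Its log2 fold change was 0.81 (SE 0.20, adjusted p = 0.0122) and 0.56 after median-ratio scaling (adjusted p = 0.124). Itga8 (α8, a mesenchymal and smooth muscle chain whose ligand is nephronectin, chr2:12106632-12301985) stood at 11.4, 19.5, 15.2 and 10.3 TPM against 4.63, 7.34, 9.11 and 9.02 TPM. Here too replicate 2 was the highest hSKP2-KI mouse, and the log2 fold change was 0.82 (SE 0.22, adjusted p = 0.0184), against 0.58 after median-ratio scaling (adjusted p = 0.105). Itgav (αv, 12.8 to 20.04 against 9.16 to 13.3 TPM) and Itgb8 (β8, 3.40 to 6.76 against 1.42 to 3.06 TPM), which together form an activator of latent TGF-β, rose by 0.52 and 0.65 on the log2 scale (adjusted p = 0.0247 and 0.0363), and came to 0.27 and 0.45 after median-ratio scaling (adjusted p = 0.198 and 0.163). The call of Itgav was lost without WT replicate 1 or hSKP2-KI replicate 3 or 4 (adjusted p up to 0.0652), and that of Itgb8 without WT replicate 1 or 4 or hSKP2-KI replicate 3 or 4 (adjusted p up to 0.0890). Itgb5 (β5), which pairs with αv, stood at 64.1 to 93.9 TPM against 57.5 to 66.0 TPM and did not pass (log2 fold change 0.26, adjusted p = 0.0841), nor did Itgb3 (β3, 2.09 to 2.87 against 1.33 to 2.87 TPM, adjusted p = 0.227).

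Itgb1 (β1), the shared partner of most matrix-binding alpha chains, stood at 128, 166, 145 and 143 TPM in hSKP2-KI and 86.5, 113, 103 and 109 TPM in WT. Every hSKP2-KI mouse was higher on either scale, with a log2 fold change of 0.50 (SE 0.10, adjusted p = 0.00655) and 0.23 after median-ratio scaling (adjusted p = 0.0886). Its 12 alpha partners summed to 85.5 ± 9.27 TPM in WT and 129 ± 12.9 TPM in hSKP2-KI, so that Itgb1 per unit of partner stood at 1.20 ± 0.0316 and 1.13 ± 0.0452. Itga9 (α9), a receptor chain for tenascin and VCAM-1, stood at 4.26, 6.20, 4.10 and 4.28 TPM against 2.43, 3.25, 2.62 and 2.94 TPM. Its hSKP2-KI mice were above the WT mice on either scale, with replicate 2 set apart, and the log2 fold change was 0.57 (SE 0.14, adjusted p = 0.0121), or 0.36 after median-ratio scaling (adjusted p = 0.0759).

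The collagen-binding chains were low, and their values lay in different directions. Itga1 (α1, chr13:114958079-115101964) was the one tested, at 6.93 to 9.48 TPM in hSKP2-KI and 3.60 to 7.25 TPM in WT, and its change was 0.45 on the log2 scale (adjusted p = 0.0729). Itga10 (α10, the chain of cartilage, chr3:96645584-96664519) stood at 0.884, 0.599, 0.824 and 0.648 TPM in hSKP2-KI and 1.29, 1.55, 0.904 and 1.30 TPM in WT. It was the only one of the 42 genes that was lower in every hSKP2-KI mouse, on either scale, and it did not enter the fit; without the filter its adjusted p was 0.137. Of its annotated exon bases, 33.5% lie in exons of another gene model (Gm42957), and how such reads were counted is not given in the sources used here. Itga11 (α11, a chain of collagen-rich fibroblasts) was higher in hSKP2-KI, at 0.975, 1.76, 1.42 and 1.59 TPM against 0.274, 0.571, 0.957 and 0.419 TPM, without overlap on the deposited scale and with overlap after median-ratio scaling (adjusted p = 0.0860 without the filter). Itga2 (α2) was at 0.174 to 0.634 TPM in hSKP2-KI and 0.0431 to 0.346 TPM in WT, with overlap.

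**Figure D4:**
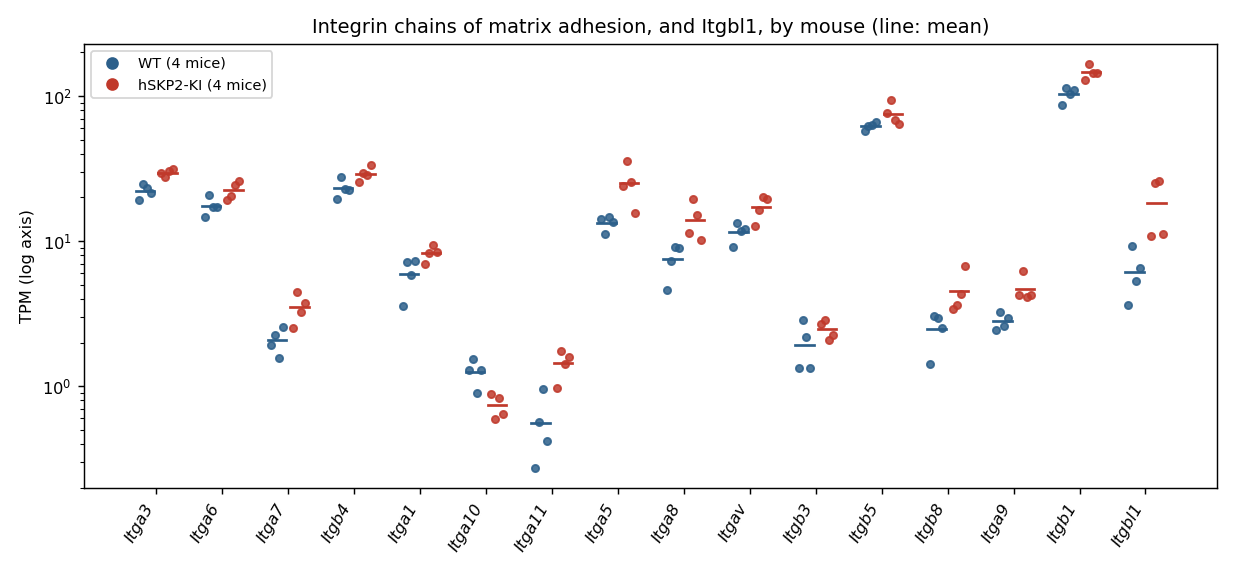
TPM of the matrix-binding integrin chains and Itgbl1 by mouse (log axis; points are mice, lines are group means of 4). Itgb1 is the highest in every mouse, Itga10 is lower in all hSKP2-KI mice (0.599 to 0.884 against 0.904 to 1.55 TPM), and Itgbl1 is higher in all of them.

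Itgbl1 (integrin beta-like 1, chr14:123659937-123978865), a secreted protein with repeats like those of beta chains but no membrane-spanning receptor part, showed the largest rise of the 32 genes. It stood at 10.9, 25.1, 26.0 and 11.2 TPM in hSKP2-KI and 3.62, 9.23, 5.33 and 6.498 TPM in WT. The lowest hSKP2-KI mice, replicates 1 and 4, were just above the highest WT mouse, and replicates 2 and 3 were far above it. The log2 fold change was 1.37 (SE 0.31, adjusted p = 0.00964) and 1.14 after median-ratio scaling (adjusted p = 0.0404), and it was called under all 4 scalings. After median-ratio scaling the call was lost without any of WT replicates 1, 3 or 4 or hSKP2-KI replicates 2 or 3 (adjusted p up to 0.0988). By mean TPM it ranked 17 of the 42 genes in WT and 11 in hSKP2-KI. Fibroblast marker TPM, which summed to 867 to 1508 in hSKP2-KI and 469 to 657 in WT, moved with it. On the deposited scale 9 of the 10 markers were called, beside 32.7% of all tested genes called higher. After median-ratio scaling 5 of the 10 were called, beside 6.92%. The part of fibroblasts in the result was not tested. Of the other name matches, Itgb1bp1, an inhibitor of integrin activation, stood at 10.4 to 12.3 TPM against 7.83 to 10.2 TPM (adjusted p = 0.0565), Itgb3bp, a centromere protein, at 1.23 to 2.08 TPM against 1.21 to 1.41 TPM (adjusted p = 0.388), and Itgb1bp2, the muscle chaperone melusin, at or under 0.804 TPM in every mouse.

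Most leukocyte integrins were highest in 1 mouse, hSKP2-KI replicate 2. Itgb2 (β2, chr10:77530329-77565708), the shared beta chain of leukocyte integrins, stood at 6.11, 27.0, 7.41 and 5.99 TPM in hSKP2-KI and 2.58, 3.64, 4.63 and 3.57 TPM in WT. All hSKP2-KI mice were higher, but replicate 2 stood far from the other 3. The log2 fold change was 1.19 (SE 0.38, adjusted p = 0.0341) and 0.97 after median-ratio scaling (adjusted p = 0.134), and without hSKP2-KI replicate 2 it was 0.72 (adjusted p = 0.0140). The call was lost without WT replicate 1, 2 or 4 (adjusted p up to 0.0917). Itgam (αM, 2.25, 7.97, 4.18 and 2.87 TPM against 1.03, 2.64, 3.45 and 2.04 TPM), a myeloid chain, also peaked in hSKP2-KI replicate 2 and did not pass (adjusted p = 0.127); 68.7% of its exon bases are shared with the gene model Gm49368. Itgax (αX), a chain of dendritic cells and macrophages, stood at 0.854, 5.92, 0.819 and 1.44 TPM against 0.323, 0.479, 0.782 and 0.661 TPM and did not enter the fit. The lymphocyte chains Itgal (αL), Itgae (αE) and Itgb7 (β7) lay between 1.07 and 2.10 TPM in hSKP2-KI and between 0.467 and 1.78 TPM in WT, and none passed (adjusted p = 0.197, 0.0685 and 0.170). Itgal and Itgb7 overlapped between genotypes. Itgae did not on the deposited scale (1.22 to 1.41 against 0.616 to 1.06 TPM) but did after median-ratio scaling. Within each library, the Itgb2 to Itgb1 ratio was 0.0476, 0.163, 0.0511 and 0.0419 in hSKP2-KI and 0.0298, 0.0323, 0.0449 and 0.0327 in WT, which overlap. The difference was 0.89 on the log2 scale (exact permutation p = 0.0571, adjusted p = 0.0762) and 0.44 without hSKP2-KI replicate 2.

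Several leukocyte marker lists moved with these genes, on a scale where 32.7% of all tested genes were called higher. The pan-leukocyte list summed to 51.6 to 109.9 in hSKP2-KI and 27.5 to 59.7 in WT (3 of 5 called), and the macrophage list to 166 to 345 in hSKP2-KI and 73.6 to 158 in WT (5 of 7 called), both with their highest value in hSKP2-KI replicate 2. T cell markers summed to 6.45 to 8.40 in hSKP2-KI and 2.86 to 6.14 in WT, with Trac listed at 0 in all libraries and 2 of 3 tested called. B cell markers summed to 3.14 to 15.1 in hSKP2-KI and 1.77 to 22.7 in WT, with overlap and 0 of 4 tested called. Neutrophil markers summed to 1.37 to 5.90 in hSKP2-KI and 0.370 to 1.37 in WT, with no gene past the filter. After median-ratio scaling 0 tested markers of the pan-leukocyte, macrophage, T cell and B cell lists were called, beside 6.92% of all tested genes called higher. The macrophage and T cell sums then overlapped between genotypes, as the pan-leukocyte and B cell sums did on either scale. The part of these cell types in the leukocyte integrin values was not tested.

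**Figure D5:**
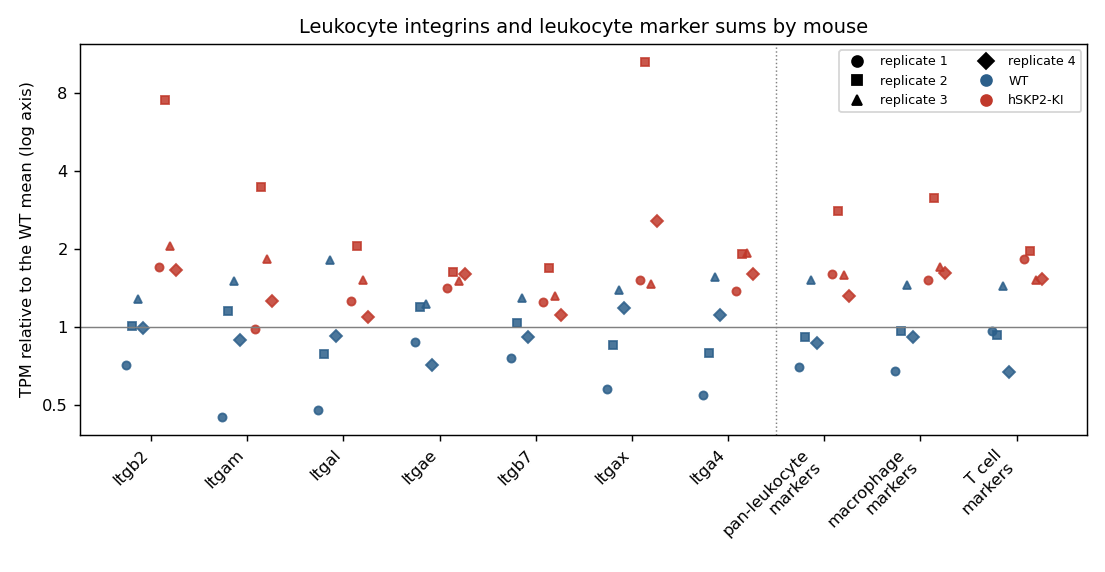
TPM of leukocyte integrin chains and summed TPM of leukocyte marker lists, each divided by its WT mean (log axis; symbol gives the replicate, colour the genotype). hSKP2-KI replicate 2 (red square) is the highest mouse for Itgb2, Itgam, Itgal, Itgae, Itgb7, Itgax and all 3 marker sums.

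The remaining chains under the filter were near 1 TPM or below. Itgb6 (β6), an epithelial activator of latent TGF-β, stood at 0.746 to 1.65 TPM in hSKP2-KI and 0.369 to 0.757 TPM in WT. Itga4 (α4, of lymphocytes) stood at 0.562 to 0.787 against 0.223 to 0.638 TPM, Itgb2l (of neutrophils) at 0.191 to 0.583 against 0.265 to 0.412 TPM and Itga2b (αIIb, of platelets) at 0.821 to 0.960 against 0.786 to 1.54 TPM, all with overlap. Itgad (αD, of macrophages) stood at 0.224, 0.979, 0.143 and 0.0560 TPM in hSKP2-KI and at 0.0212 TPM in WT replicate 1, and was listed at 0 in the other 3 WT mice. The platelet and megakaryocyte markers summed to 25.5 to 37.2 in hSKP2-KI and 10.7 to 18.3 in WT. Of the 6 markers 5 did not pass the filter, and the 1 tested was called, beside 32.7% of all tested genes called higher.

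Most fibroblast, smooth muscle and endothelial markers were called higher on the deposited scale. The counts below stand beside 32.7% of all tested genes called higher. All 8 smooth muscle markers were called, and endothelial markers summed to 54.8 to 90.1 in hSKP2-KI and 33.4 to 45.7 in WT with 6 of 8 called. Pericyte markers summed to 24.8 to 41.5 in hSKP2-KI and 23.0 to 29.6 in WT (1 of 5 tested called), Schwann cell markers to 24.0 to 33.9 in hSKP2-KI and 17.1 to 25.6 in WT (1 of 6), skeletal muscle markers to 293 to 491 in hSKP2-KI and 186 to 344 in WT (2 of 4 tested) and adipocyte markers to 44.6 to 210.3 in hSKP2-KI and 27.4 to 169 in WT (0 of 5 with limma). On the epithelial side, 2 of 6 epithelial markers and 2 of 5 basal markers (294 to 426 in hSKP2-KI and 196 to 306 in WT) were called, and the proximal luminal and urethral list summed to 329 to 537 in hSKP2-KI and 116 to 125 in WT with 5 of 5 called. After median-ratio scaling the fibroblast, smooth muscle, endothelial and proximal sums still did not overlap between genotypes, and the epithelial and basal sums did. On that scale 5 of 10 fibroblast, 4 of 8 smooth muscle, 2 of 8 endothelial and 4 of 5 proximal markers were called. In the epithelial, basal, pericyte, Schwann cell, skeletal muscle and adipocyte lists 0 were called. These counts stand beside 6.92% of all tested genes called higher. The part of these cell types in the laminin and integrin values was not tested.

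Many other genes of the same pathways also rose, and 0 were called lower in any of the 4 lists, on a scale where 32.7% of all tested genes rose. The counts after median-ratio scaling stand beside 6.92% of all tested genes called higher on that scale. Of the other basement membrane components, 15 of 18 tested rose and 0 fell (median log2 fold change 0.61, or 0.42 after median-ratio scaling, when 4 of 18 were called: Agrn, Ntn1, Npnt and Frem2). The largest log2 fold changes were those of Ntn1, a laminin-related netrin, at 0.94 (TPM 11.0 ± 2.07 against 5.35 ± 1.69, adjusted p = 0.00654), Npnt, the nephronectin bound by α8β1, at 0.94 (TPM 5.42 ± 1.22 against 2.34 ± 0.521, adjusted p = 0.00379) and Col4a2, a collagen IV chain, at 0.79 (TPM 47.1 ± 17.1 against 25.7 ± 3.14, adjusted p = 0.0131). The smallest called were Col18a1 (0.44), Egflam (0.51) and Pxdn (0.53).

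Among integrin ligands 12 of 21 tested rose and 0 fell (median 0.56, or 0.32 with 5 called after median-ratio scaling: Fn1, Postn, Icam1, Mfge8 and Ltbp1). The log2 fold change of Postn, the periostin of activated stroma, was 1.45 (TPM 41.9 ± 18.0 against 14.1 ± 4.12, adjusted p = 0.00379), that of Fn1, the fibronectin bound by α5β1, 1.34 (TPM 114 ± 62.2 against 40.5 ± 8.08, adjusted p = 0.00962), and that of Ltbp1, which tethers latent TGF-β, 1.01 (TPM 12.8 ± 1.14 against 5.94 ± 1.22, adjusted p = 0.00110). Cdh1 (0.33), also in the epithelial list, Tgfb1 (0.50) and Adam9 (0.58) were the smallest called. Spp1 (osteopontin) and Ibsp (bone sialoprotein), both RGD ligands and named after their values were seen, had negative log2 fold changes that did not pass the test, at -0.98 (TPM 1.84 ± 1.45 against 4.86 ± 3.21, adjusted p = 0.0812) and -0.82 (TPM 34.2 ± 17.3 against 73.4 ± 63.0, adjusted p = 0.232). Spp1 was called lower without WT replicate 4 (limma, adjusted p = 0.0190) or without hSKP2-KI replicate 2 (adjusted p = 0.0344). The fibrinogen genes Fga, Fgb and Fgg were listed at 0 in all 8 libraries.

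Of the genes of integrin activation and focal adhesion 21 of 29 tested rose and 0 fell. Their median was 0.38, the value of the integrin and laminin genes themselves, and 0.12 after median-ratio scaling. On that scale 2 of the 29 (6.9%) were called, Parva and Tns1, close to the 6.92% of all tested genes called higher. By log2 fold change Fermt3, the kindlin of blood cells, at 0.73 (TPM 5.54 ± 2.12 against 2.99 ± 1.43, adjusted p = 0.0485), Tns1, a tensin, at 0.71 (TPM 110.0 ± 13.6 against 66.6 ± 6.63, adjusted p = 0.00180), and Apbb1ip, the talin recruiter of leukocytes, at 0.66 (TPM 3.00 ± 0.941 against 1.51 ± 0.427, adjusted p = 0.0211), led the list, and Fermt2, the kindlin of stroma and epithelium (0.28), Tns2 (0.29) and Fermt1, the epithelial kindlin (0.29), closed it. For Fermt3 the genotypes overlapped, and the call held in 2 of the 8 fits with 1 mouse left out (limma, adjusted p up to 0.132). The calls of Fermt1 and Tns2 held in 2 such fits each, and that of Fermt2 in 3. Itgb1bp1 belongs both to this list and to the 42 genes. In the list of hemidesmosome genes, non-integrin laminin receptors and associated membrane proteins, 5 of 9 tested rose and 0 fell. The median was 0.42, or 0.17 after median-ratio scaling, when Bcam was called. The dystroglycan gene Dag1, the hemidesmosome genes Plec and Col17a1, and Sgcd did not pass (limma, adjusted p = 0.136, 0.0901, 0.0724 and 0.0592). Bcam, a receptor for laminin α5, had the largest log2 fold change, 0.85 (TPM 74.9 ± 11.2 against 40.9 ± 1.85, adjusted p = 0.000731), followed by the sarcoglycans Sgce (0.53) and Sgcb (0.48), the hemidesmosome plakin Dst (0.42) and the tetraspanin Cd151 (0.29). No test compared these lists with each other or with the integrin and laminin genes.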

How the data were processed

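Ventral prostate poly-A RNA of 4 hSKP2-KI and 4 WT mice was sequenced, 1 library per mouse. The authors mapped paired-end reads against the mouse genome with CLC software, and deposited 1 table of TPM (reads per gene over transcript length, scaled to a total of 1000000 in every library). The submitters' processing notes name mm10 and GRCm38; the software version, annotation, strand setting and counting options are not given in the sources used here. TPM hold no read counts, so the depth behind a value is unknown and no count model, interval or detection floor was used. The table holds 0 columns of other samples.

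Groups came from the genotype labels. A gene was tested if its TPM reached 1 or more in 4 or more of the 8 libraries (13080 of 36333 genes). These were fitted as log2(TPM + 1) with limma 3.58.1 (R 4.3.3) with a mean-variance trend, and p-values were adjusted by Benjamini-Hochberg over all tested genes, with a threshold of 0.05. Fold changes on this scale understate changes of low genes. The procedure was tested on simulated data. Gene ratios (4) within a library were compared by two-sided exact permutation over 70 assignments, adjusted over the 4. Alternatives were a pseudocount of 0.1, no filter, a minimum mean TPM of 5, quantile normalization, scaling by median ratio, omission of the 20 most abundant genes, a replicate block, and each library left out; median-ratio scaling was combined with the last pair after the data had been seen. All 42 genes matched the RefSeq gene table (GRCm38.p6) by Entrez identifier, and exon sharing was taken from GENCODE M21. Exons shared over 10% of bases were found in Itgam, Itga10, Itgad and Itgb1bp1.

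The integrin and laminin genes and all lists were chosen with earlier results of these data known. Every matched gene is counted and named, except for results that are not reported here; in each pathway list the 3 highest and 3 lowest fold changes among called genes are named, with genes at 0 in the marker lists, Skp2 and Pbsn as the check of the labels, and Sbp, Spink1 and Sbpl for their share of TPM. Genes called after median-ratio scaling, genes sharing exons, Spp1, Ibsp, Dag1, Plec, Col17a1 and Sgcd were named after their values were seen. Plots used matplotlib 3.10.9 (Python 3.11.15).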

Additional observations from a re-analysis of the deposited data

Results flagged for a closer look

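Groups of 4 mice were taken over the integrin and laminin genes and ratios reported, those under the filter included. In 9 of the 88 groups 1 mouse stood apart from the other 3 by more than Dixon's critical gap for 4 values. About 1 in 20, or 4.4, would be set apart if the groups were independent and normally spread. The groups share mice and the Itgb2 to Itgb1 ratio repeats Itgb2, so no conclusion is drawn from these counts. hSKP2-KI replicate 2 was the high mouse for Itgb2 (27.0 TPM, gap 0.933 of the range), for Itgax (5.92 TPM, 0.878), for Itga9 (6.20 TPM, 0.917) and for the Itgb2 to Itgb1 ratio (0.163, 0.924). WT replicate 1 was the low mouse for Lama4 (6.73 TPM, 0.833) and Lama5 (41.3 TPM, 0.901). Lamb3 was high in WT replicate 2 (14.4 TPM, 0.844), and Lamc3 was low in hSKP2-KI replicate 1 (2.62 TPM, 0.903). Itgad was at 0.0212 TPM in WT replicate 1 and listed at 0 in the other 3 WT mice.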

How the results depend on the processing

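The count of integrin and laminin genes called was 15 on TPM as deposited and turned on the scale: it was 1 after median-ratio scaling, 1 after quantile normalization and 1 without the 20 most abundant genes (Itgbl1 each time), and 1 (Itga3) with no filter on low values. Over all genes the 4433 called became 1461, 1317, 1321 and 1653 under the same settings. A pseudocount of 0.1 (15) and a mean TPM of at least 5 (12 of 20 tested) kept the count within 1.5 times. Under median-ratio scaling, quantile normalization and omission of the 20 most abundant genes, 14 called genes lost the call each time, and signs turned for 5, 6 and 3 of the genes reported. After median-ratio scaling Itgb5 was -0.0016, Lama5 -0.0033, Lama1 -0.016, Lamc3 -0.12 and Itgb3bp -0.013; after quantile normalization Itgb3 was -0.041, Itgb7 -0.036, Lama1 -0.16, Lama3 -0.083, Lamc3 -0.22 and Itgb3bp -0.14; without the 20 most abundant genes Lama1 was -0.0050, Lamc3 -0.11 and Itgb3bp -0.0027. The cause was not tested. None of these genes had been called.

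With 1 mouse left out, 9 (without WT replicate 1) to 18 (without hSKP2-KI replicate 1) integrin and laminin genes and 2993 to 4677 of all genes were called, and after median-ratio scaling 0, 1, 0 and 0 (without WT replicates 1 to 4) and 4, 0, 0 and 2 (without hSKP2-KI replicates 1 to 4), of 788, 1014, 973, 935, 1138, 931, 1291 and 833 of all genes. On the deposited scale 9 genes were called in all 8 such fits (Itga3, Itga5, Itga8, Itga9, Itgb1, Lama4, Lamb1, Lamc1 and Itgbl1); Lamc3 ranged from -0.039, without WT replicate 1, to 0.33. Leaving out 1 mouse moved the log2 ratio differences within 0.26 to 0.43 for Lama4 to Lama5, -0.02 to 0.07 for Itga6 to Itgb4 and 0.44 to 1.09 for Itgb2 to Itgb1.

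The labels do not say whether the replicate numbers pair the mice. The correlations of same-numbered deviations were 0.221, -0.109, 0.167 and -0.0142, and 4 of 8 libraries correlated best with their own number. These values do not settle it. With the replicate number as a block, 21 integrin and laminin genes and 5128 of all genes were called, and with the block and median-ratio scaling together 4 (Lama4, Lamb1, Lamc1 and Itgbl1) and 1425. Depth is unknown for TPM, so the precision of genes near 1 TPM, such as Itga10 and Itga11, rests on the spread between mice alone.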
